A study of Mus musculus with 17 samples.

Results

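Kit+ cells of the mouse embryonic aorta kept on OP9-Dll4 stroma (Kit+D) were compared with Kit+ cells taken fresh from the same tissue. The 3 Kit+D arrays and the 3 fresh Kit+ arrays were chosen by their titles, and they are 6 of the 17 arrays of the series. Cells of the aorta-gonad-mesonephros (AGM) region were sorted at E11.5 as CD31+CD45−Ter119−, that is as cells with an endothelial surface protein and without a leukocyte and an erythroid one. Fresh cells were divided by the surface receptor Kit into Kit+ and Kit− cells. For culture, the whole CD31+ fraction was placed for 2 h on OP9 cells, a mouse bone marrow stromal line made to carry the Notch ligand Dll4 or Jag1, and was then sorted again by CD45, CD31 and Kit into Kit+D, Kit−D, Kit+J and Kit−J. The labels and methods give no mutation or drug for any of these groups and name 3 separate sorting experiments for the replicates. Ter119, the erythroid surface mark, was not part of the second sort. Transcripts were read on Affymetrix Mouse Gene 1.0 ST arrays from a few nanograms of amplified RNA, and every value below is a log2 signal or a difference of log2 signals. Fresh cells had been hybridised for an earlier series, and so culture, ligand and array set cannot be told apart in the difference between Kit+D and Kit+. One label line of Kit+D replicate 3 names the opposite Kit population; its title was used.

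Notch receptors are cut when a ligand on a neighbouring cell binds them, and the freed part enters the nucleus and switches on target genes. In the AGM, cells of the aortic wall called haemogenic endothelium bud off as Kit+ clusters that hold precursors of blood stem cells, while other cells keep an arterial endothelial fate. Dll4 is the ligand best known for arterial fate. Embryonic globins are the haemoglobin chains of the first red blood cells, which come from the yolk sac and circulate through the aorta at this age.

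The genes that moved furthest were a pair of embryonic globin genes. Hba-x, the zeta chain of embryonic haemoglobin, and Hbb-y, an embryonic beta-like chain, lie in the alpha and beta globin clusters on different chromosomes. Their upstream sequences are shown because these were the called genes with the largest differences. They are the 250 bases before the RefSeq start site in GRCm38.p6, at chr11:32276350-32276599 (plus strand) for Hba-x and chr7:103853208-103853457 (minus strand, written in the gene's direction) for Hbb-y. Capitals mark matches, on either strand, to GATAA, which zinc finger regulators of red cells bind, to CACCC, which Kruppel-like factors bind, to CCAAT, found near the start of many genes, and to TATAA, the core promoter box.
Hba-x: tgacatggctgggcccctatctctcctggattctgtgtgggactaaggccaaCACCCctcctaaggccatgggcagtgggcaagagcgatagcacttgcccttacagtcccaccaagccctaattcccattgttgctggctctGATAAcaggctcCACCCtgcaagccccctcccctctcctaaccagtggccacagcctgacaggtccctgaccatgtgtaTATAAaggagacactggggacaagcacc
Hbb-y: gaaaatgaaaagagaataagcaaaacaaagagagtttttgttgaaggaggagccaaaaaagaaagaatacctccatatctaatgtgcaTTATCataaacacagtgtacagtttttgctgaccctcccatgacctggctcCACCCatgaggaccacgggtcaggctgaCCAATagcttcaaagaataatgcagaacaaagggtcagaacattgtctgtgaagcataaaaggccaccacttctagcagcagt
Hba-x has 1 GATAA, 2 CACCC and 1 TATAA match and Hbb-y has 1 GATAA (on the opposite strand), 1 CACCC and 1 CCAAT match. Of 32851 such promoter windows in the RefSeq table, 22.6% hold GATAA, 52% CACCC, 33.8% CCAAT and 22.8% TATAA. These letters are thus common, and binding was not measured.

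Hba-x read 10.26, 10.42 and 9.21 on Kit+D replicates 1, 2 and 3, and 5.46, 5.76 and 5.45 on Kit+ replicates 1, 2 and 3. All Kit+D arrays stood far above all fresh ones, with replicate 3 the lowest. The difference was 4.41 ± 0.54 (SE; n = 3 and 3; limma adjusted p = 0.00282). Hbb-y read 11.39, 11.32 and 10.37 in Kit+D against 6.76, 6.15 and 7.30 in Kit+, a difference of 4.29 ± 0.55 (SE; limma adjusted p = 0.00346). The groups again did not overlap, and replicate 3 was again the lowest of Kit+D. On OP9-Jag1 neither gene rose clear of the fresh arrays. Hba-x read 4.87, 5.58 and 5.79 in Kit+J, overlapping with Kit+, and Hbb-y read 5.77, 4.27 and 5.29, below every fresh array. Tested directly, Kit+D exceeded Kit+J by 4.55 for Hba-x (limma adjusted p = 0.00145) and by 5.91 for Hbb-y (adjusted p = 0.000493). Both calls against Kit+ held with each of the 6 arrays left out, at adjusted p up to 0.0235 and 0.0301, and in the fit of the 6 arrays alone.

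Kit− cells carried these globin transcripts already when fresh. For Hba-x the fresh Kit− arrays read 8.88, 9.43 and 10.20 and the Kit−D arrays 10.02, 10.56 and 8.12. For Hbb-y they read 10.02, 10.88 and 11.39 fresh and 11.40, 11.997 and 9.97 on OP9-Dll4. The Kit+D level thus lay within the range of the Kit− groups. In Kit− cells the change with OP9-Dll4 was 0.06 for Hba-x and 0.36 for Hbb-y, and the difference of the Kit+ and Kit− changes, 4.35 and 3.93, did not pass its own test (limma adjusted p = 0.158 and 0.185). With the 2 gates of each sort taken as a pair, a fixed block called that of Hba-x (adjusted p = 0.00965) and not that of Hbb-y (0.223), and a random block called neither (0.222 and 0.268). Hbb-bh1, another embryonic beta-like globin gene, read 8.79, 8.72 and 7.24 in Kit+D against 5.73, 6.17 and 5.17 in Kit+, without overlap, but its difference of 2.56 did not pass (limma adjusted p = 0.124). Of 6 embryonic and other globin genes tested, 2 were called higher and 0 lower, beside 1.04% and 0.381% of all genes. In this list 4 differences were positive. Wholly above Kit+ lay 3 genes and wholly below it 1, beside 10.1% and 12% of all genes. With array weights 2 were called higher and 1 lower, beside 653 and 422 of all genes.

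**Figure D1:**
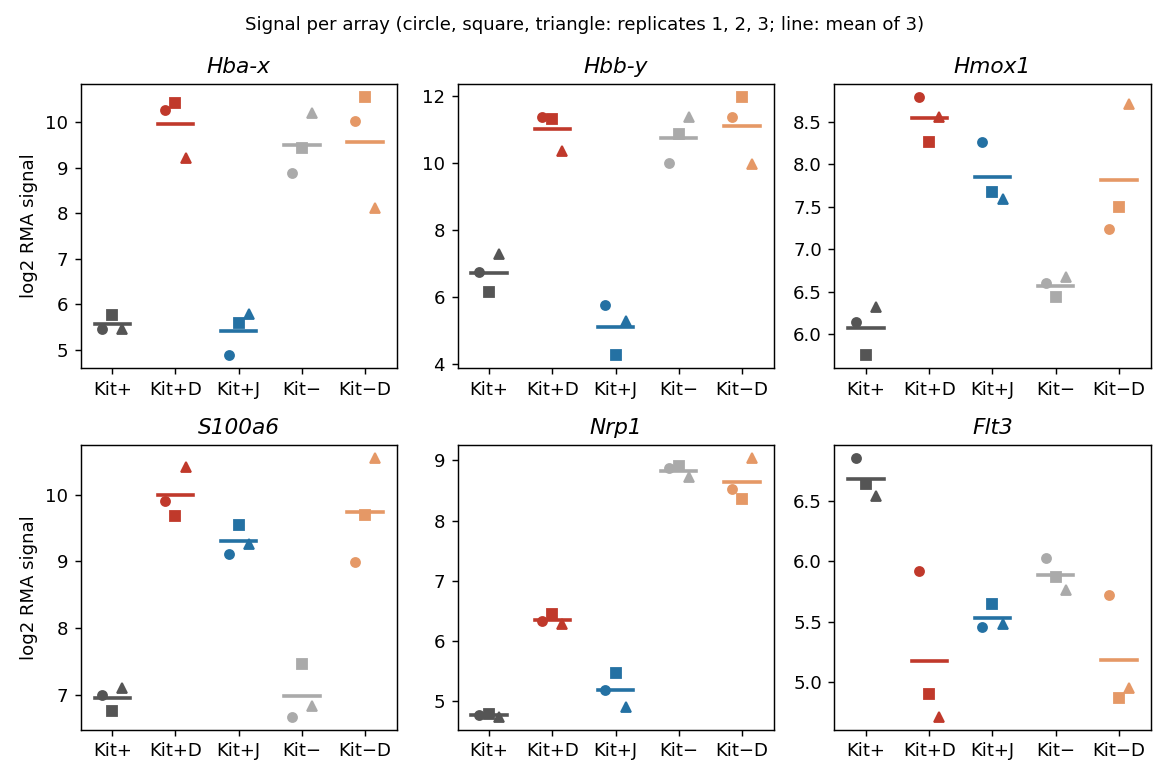
Log2 signal of 6 genes on each array (vertical axes, log2 RMA signal, not starting at 0) in Kit+, Kit+D, Kit+J, Kit− and Kit−D cells; circles, squares and triangles are replicates 1, 2 and 3 and lines are means of 3. Hba-x and Hbb-y were high in Kit+D and in both Kit− groups and low in Kit+ and Kit+J, whereas Hmox1 and S100a6 were also higher in Kit+J than in Kit+.

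Genes that define red blood cells were not called beside the globins. For 3 of 17 markers tested, this depended on Kit+D replicate 3. Of 17 erythroid marker genes tested (cell surface, membrane skeleton and regulators), 0 passed in Kit+D against Kit+ in the limma fit, with a median difference of 0.02, beside −0.02 over all genes; over all genes, 17% had an unadjusted p under 0.05. The mean of the list relative to Kit+ was 0.35 and 0.52 on Kit+D replicates 1 and 2 and −0.55 on replicate 3, against −0.18 to 0.14 on the fresh arrays, so that replicates 1 and 2 lay above every fresh array and replicate 3 below. Without Kit+D replicate 3, 3 of the 17 were called higher (and 543 of all genes): Ermap, an erythroblast membrane protein, by 1.52 (limma adjusted p = 0.00693), Rhag, a red cell membrane channel, by 2.11 (0.0132) and Epor, the erythropoietin receptor, by 0.84 (0.0428). With Kit+D replicate 2 alone, Rhag and Ermap were called. Alas2, the red-cell enzyme that starts haem synthesis, read 5.25 on each Kit+D array and 5.19 to 5.25 in Kit+. Klf1, a master regulator of globin genes, read 6.26, 6.48 and 4.92 in Kit+D against 6.13, 6.90 and 6.69 in Kit+, and Gata1, the regulator of red cell fate, read 6.23, 6.16 and 4.85 against 6.03, 6.65 and 6.02. Both overlapped between the groups, with Kit+D replicate 3 below every fresh array. Rhag was higher on Kit+D replicates 1 and 2 (5.42 and 6.90) and low on replicate 3 (3.52), against 3.61, 4.71 and 3.81 in Kit+. Alad, the second enzyme of haem synthesis, did pass: it read 8.73, 9.24 and 7.97 in Kit+D against 7.24, 7.34 and 7.35 in Kit+, a difference of 1.34 ± 0.27 (SE; limma adjusted p = 0.03), and it read 7.25, 7.10 and 7.61 in Kit+J. The call of Alad was lost without any 1 of the 3 Kit+ arrays or Kit+D replicate 2 (adjusted p up to 0.0994). Of 16 haem synthesis and degradation genes tested, 2 were called higher and 0 lower (median 0.56), beside 1.04% and 0.381% of all genes, and 14 had a positive difference. The mean of this list was 0.76, 0.88 and 0.17 on Kit+D replicates 1, 2 and 3, −0.18 to 0.09 in Kit+ and 0.02 to 0.15 in Kit+J. The count was 4 without Kit+D replicate 3, and 1 without Kit+D replicate 2 or any 1 of the Kit+ arrays. The part of red cell RNA in the globin signal was not tested.

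Over all 19937 genes, 283 passed in Kit+D against Kit+ (1.42%; limma, adjusted p under 0.05, which is what called means below). Of these, 207 were higher in Kit+D (1.04% of genes) and 76 lower (0.381%), and in every one of them the 3 Kit+D arrays lay wholly above or wholly below the 3 Kit+ arrays; over all genes 10.1% lay above and 12% below. The called rises had a median of 1.05, and 110 reached a difference of 1 (a doubling of the signal) and 11 a difference of 2. The called falls were smaller, with a median of −0.75, 17 at −1 or lower and 1 at −2 or lower. The split between rises and falls depended on scaling. It was 297 to 15 when arrays were set to equal housekeeping signal, which moved the median of all genes from −0.02 to 0.09, and 106 to 124 when the values were quantile-normalized once more. The upper quartile of the arrays was 6.91 to 6.98 in Kit+D and 6.78 to 6.79 in Kit+. By level in fresh cells, the 4985 dimmest genes (up to 4.47) held 11 called rises and 4 falls and the 4984 brightest (from 6.89) 88 and 31.

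The number of calls leaned on single arrays. It was 35, 51 and 66 without Kit+ replicate 1, 2 and 3, and 408, 46 and 543 without Kit+D replicate 1, 2 and 3; a fit of the 6 arrays alone called 6 genes. With each array left out all 283 kept their direction, which non-overlapping arrays fix in advance. The call was kept each time by 27, among them Hba-x, Hbb-y, S100a6, Hmox1, Nrp1, Plxnd1, Bst2, Cdt1, Crip1, Peg10, Atp6v0b, Mir465 and Snora3. For called genes below that are not among the 27, the highest adjusted p with 1 array left out is given. The spread between arrays was wider in Kit+D than in fresh cells, with a median SD over genes of 0.26 against 0.17 (0.25 in Kit+J).

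**Figure D2:**
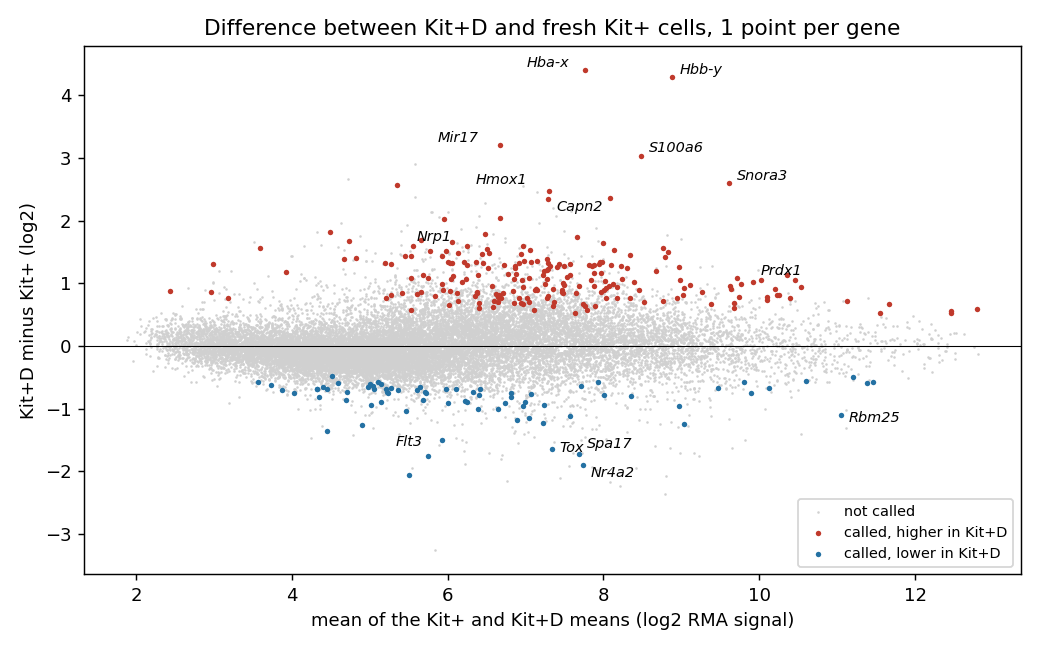
Difference between the Kit+D and Kit+ means (vertical axis, log2) against the mean of both (horizontal axis, log2 RMA signal), 1 point per gene over 19937 genes; red and blue points are the 207 rises and 76 falls called by limma. Hba-x and Hbb-y stand apart at the top, and the falls reach about as far as the more common rises of size 1 to 2.

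The Kit+D arrays differed among themselves in markers of other cells, and these values go with each list below. Relative to the Kit+ mean, a list of 20 myeloid genes averaged 2.36, −0.56 and −0.93 on Kit+D replicates 1, 2 and 3, against −0.07 to 0.08 on the fresh arrays. A list of 27 primordial germ cell genes averaged −2.46, −0.01 and 0.61. None of the genes of either list was called in limma, and the median differences were 0.43 and −0.64. Without Kit+D replicate 1 the medians were −0.46 and 0.22. That fit called 0 myeloid and 3 germ cell genes higher and 0 of either list lower, beside 285 higher and 123 lower of all genes. Csf1r, the macrophage growth factor receptor, read 8.55 on replicate 1 and 4.88 and 4.57 on replicates 2 and 3, and Pou5f1, a pluripotency factor kept in germ cells, read 4.75 on replicate 1 and 9.70 and 9.94 on the others. Replicate 1 was thus high in myeloid genes and low in germ cell genes, and the other Kit+D arrays were not. On the same scale, Kit−D replicates 1, 2 and 3 averaged 1.22, −0.75 and −0.75 for myeloid genes, against 0.415 to 1.395 in fresh Kit−. For germ cell genes they averaged −2.89, −2.56 and −1.84, against −1.20 to −1.06 in fresh Kit−. The list of haematopoietic surface and granule genes averaged 1.03, −0.52 and −2.34, with Ptprc, which encodes CD45, at 8.99, 5.54 and 4.64 in Kit+D and 8.35 to 8.57 in Kit+. On the Kit+D arrays, stromal and mural genes averaged −0.12, 0.22 and 0.89 and epithelial genes −0.94, 0.17 and 0.39, with 0 of 27 and 0 of 14 called. In such bulk samples, fewer cells of a type and less RNA per cell cannot be told apart. Kit itself read 8.98, 8.51 and 8.99 in Kit+D against 9.55, 9.44 and 9.54 in Kit+, without overlap (difference −0.68, limma adjusted p = 0.196), and 8.13 to 8.29 in fresh Kit−. The mean of 7 housekeeping genes was −0.11, −0.001 and −0.22 on the Kit+D arrays, and 0 of them was called. With Kit+D replicate 2 alone, the array without either of these extremes, 263 genes were called.

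**Figure D3:**
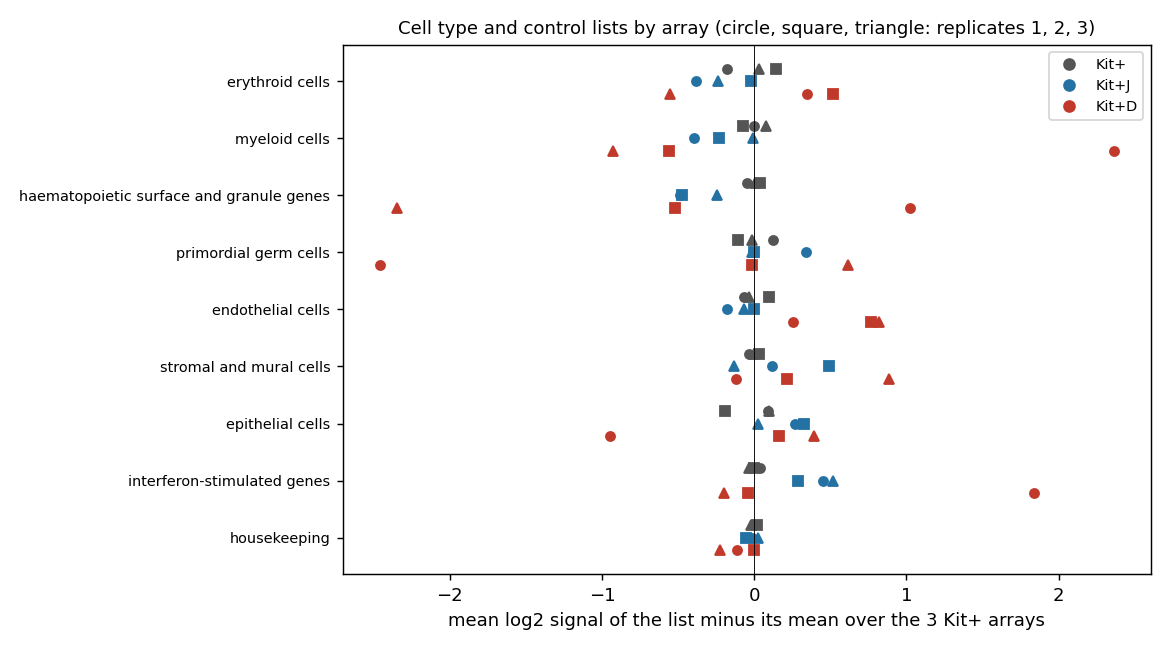
Mean log2 signal of each list of cell type or control genes on each array minus the list's mean over the 3 fresh Kit+ arrays (horizontal axis); grey, blue and red are Kit+, Kit+J and Kit+D, and circles, squares and triangles replicates 1, 2 and 3. Kit+D replicate 1 lies at 2.36 for myeloid and −2.46 for germ cell genes, and Kit+D replicate 3 at −2.34 for haematopoietic surface and granule genes.

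Of 28 genes of the response to oxidative stress, 6 were called higher and 0 lower, with a median of 0.51, beside 1.04% of all genes called higher. The list mean relative to Kit+ was 0.81, 0.80 and 0.22 on Kit+D replicates 1, 2 and 3, against −0.11 to 0.07 on the fresh arrays and 0.34 to 0.59 in Kit+J, where 0 of the 28 were called against Kit+. Replicate 3 was thus lower than the others and below every Kit+J array. The count was 1 of 28 without Kit+ replicate 1 or 2, with only the 6 arrays and with the 9 Kit+ arrays, 2 without Kit+D replicate 2, 3 without Kit+ replicate 3 and 11 without Kit+D replicate 3. Hmox1, haem oxygenase 1, which breaks down haem, read 8.80, 8.26 and 8.56 in Kit+D against 6.14, 5.75 and 6.32 in Kit+. Every Kit+D array exceeded every fresh one by about 2, and the difference was 2.47 ± 0.31 (SE; limma adjusted p = 0.00319). Hmox1 also read 8.27, 7.68 and 7.59 in Kit+J, so that the groups on the 2 stromas overlapped (difference 0.70, adjusted p = 0.237). In Kit− cells Hmox1 went from 6.44 to 6.67 fresh to 7.24 to 8.72 in Kit−D (difference 1.25, adjusted p = 0.112). Me1, an enzyme that makes NADPH, rose by 1.67 (limma adjusted p = 0.0327, up to 0.121 without Kit+ replicate 2). Sqstm1, the autophagy receptor p62, rose by 1.28 (adjusted p = 0.0183, up to 0.0749 without Kit+ replicate 2), and Gclm, a subunit of the enzyme that starts glutathione synthesis, by 1.30 (0.0426, up to 0.14 without Kit+D replicate 2). These differed little between the stromas, with Kit+D minus Kit+J at 0.40, 0.12 and 0.18 (limma adjusted p = 0.55, 0.809 and 0.781). Taldo1, of the pentose phosphate pathway, rose by 1.27 (adjusted p = 0.0155, up to 0.07 without Kit+D replicate 2). Prdx1, a peroxide-removing enzyme, read 10.35, 10.45 and 10.50 in Kit+D and 9.24 to 9.59 in Kit+, a rise of 1.02 (adjusted p = 0.0157, up to 0.0714 without Kit+ replicate 2). It was the member of the list that also exceeded Kit+J, by 0.71 (adjusted p = 0.0474).

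Of 18 genes of the calcium-binding S100 proteins and the annexins, 3 were called, all higher (median 0.91), beside 1.04% of all genes called higher. The list mean was 1.64, 0.52 and 0.75 on Kit+D replicates 1, 2 and 3, highest on replicate 1, the array high in myeloid genes, against −0.10 to 0.07 in Kit+, 0.09 to 0.37 in Kit+J and 0.94 to 1.27 in fresh Kit−. The part of myeloid RNA in this list was not tested. Only S100a6 was called without any 1 of the Kit+ arrays. S100a6 read 9.91, 9.67 and 10.42 in Kit+D against 7.001, 6.76 and 7.12 in Kit+. All Kit+D arrays were higher, by 3.04 ± 0.40 (SE; limma adjusted p = 0.00381), and Kit+J, at 9.12, 9.55 and 9.27, was nearly as high (Kit+D minus Kit+J 0.69, adjusted p = 0.372). The same gene rose in Kit− cells on OP9-Dll4, by 2.75 (adjusted p = 0.0192). The other called members were the membrane-binding annexins Anxa5, by 1.65 (limma adjusted p = 0.0181, up to 0.0736 without Kit+ replicate 2), and Anxa2, by 1.39 (0.0416, up to 0.138 without Kit+ replicate 1). Capn2, a calcium-activated protease, rose by 2.35 (0.0131, up to 0.0594 without Kit+ replicate 1), and Kit+J stood at 7.32, 8.11 and 8.34 beside 9.25, 8.24 and 7.91 in Kit+D.

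Of 44 actin cytoskeleton and contractility genes, 7 were called higher and 0 lower (median 0.47), beside 1.04% of all genes called higher and 0.381% lower. The list mean lay at 0.57, 0.51 and 0.62 on Kit+D replicates 1, 2 and 3. This was above the −0.03 to 0.02 of the fresh arrays and the 0.07 to 0.12 of Kit+J. It was below the 0.70 to 0.82 of fresh Kit− and the 0.98 to 1.40 of Kit−D. The count of 7 fell to 0 or 1 without any 1 of the Kit+ arrays or Kit+D replicate 2, and to 0 with only the 6 arrays. The 3 arrays that differed in myeloid and germ cell genes were therefore close to each other in this list. Cnn2, a calponin that binds actin, read 7.06, 6.97 and 6.61 in Kit+D, 5.38, 5.11 and 5.70 in Kit+ and 5.89, 5.38 and 5.85 in Kit+J. Kit+D was above both other groups without overlap, by 1.48 over Kit+ (limma adjusted p = 0.0174, up to 0.0749 without Kit+ replicate 2) and by 1.18 over Kit+J (0.0314). Lmna, which encodes the nuclear lamins A and C, rose by 1.30 over Kit+ (adjusted p = 0.0336, up to 0.104 without Kit+ replicate 2) and by 1.12 over Kit+J (0.0437). Pdlim5, an actin-associated adaptor, rose by 1.54 (0.0274, up to 0.0789 without Kit+D replicate 2), Flna, the actin crosslinker filamin A, by 1.27 (0.0336, up to 0.125 without Kit+ replicate 1), Rhoc, a small GTPase, by 1.28 (0.0411, up to 0.134 without Kit+ replicate 2) and the intermediate filament gene Vim by 0.82 (0.0254, up to 0.09 without Kit+ replicate 1), all limma adjusted p. Against Kit+J these 4 did not pass (adjusted p from 0.0823 to 0.145). Crip1, a small LIM protein outside the lists, was named after its values were seen: it read 9.72, 9.73 and 9.18 in Kit+D, 7.72, 8.004 and 8.23 in Kit+ and 8.39, 8.10 and 7.80 in Kit+J, and Kit+D exceeded Kit+ by 1.56 (0.00346) and Kit+J by 1.45 (0.00367).

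Of 25 genes of the VEGF, angiopoietin and Kit systems, which guide the growth of vessels, 3 receptor genes were called, all higher (median 0.30), beside 1.04% of all genes. Only Nrp1 was called with the 6 arrays alone, under repeated quantile normalization, and without any 1 of the Kit+ arrays or Kit+D replicate 2. The list mean was 0.12, 0.35 and 0.64 on Kit+D replicates 1, 2 and 3, against −0.03 to 0.05 in Kit+, −0.10 to −0.05 in Kit+J and 1.27 to 1.37 in fresh Kit−. Nrp1, neuropilin 1, a co-receptor of VEGF and semaphorins, read 6.33, 6.45 and 6.28 in Kit+D against 4.76, 4.78 and 4.74 in Kit+. The spread within each group was far smaller than the gap between them, which was 1.59 ± 0.19 (SE; limma adjusted p = 0.00282). Kit+J read 5.19, 5.47 and 4.89, below Kit+D by 1.17 (adjusted p = 0.0097), and fresh Kit− 8.72 to 8.91. Nrp2 rose by 1.43 (0.0336, up to 0.13 without Kit+ replicate 2). Kdr, the main VEGF receptor of endothelium, read 5.47, 6.38 and 6.89 in Kit+D, lowest on replicate 1, and 4.71, 5.08 and 4.63 in Kit+, a rise of 1.44 (0.0491, up to 0.147 without Kit+ replicate 1). Tek, the angiopoietin receptor Tie2, read 5.86, 6.02 and 5.73 in Kit+D, 5.20, 5.08 and 5.12 in Kit+ and 4.72, 4.54 and 4.44 in Kit+J. It stood above Kit+J without overlap, by 1.30 (limma adjusted p = 0.00466), while its difference of 0.74 from Kit+ did not pass (0.0659). Plxnd1, an endothelial receptor of semaphorins, read 7.47, 7.81 and 7.95 in Kit+D against 6.60, 6.46 and 6.13 in Kit+, a rise of 1.35 (adjusted p = 0.00894), and exceeded Kit+J by 0.91 (0.038).

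Of 36 endothelial identity genes, 2 were called higher (Nrp1 and Kdr), beside 1.04% of all genes. In this list 31 had a positive difference and the median was 0.56. Wholly above Kit+ lay 14 genes and wholly below it 0, beside 10.1% and 12% of all genes. The 2 calls became 7 without Kit+D replicate 1 (285 of all genes higher) and 8 with array weights (653). They became 1 with only the compared groups (6) or with any other of those 6 arrays left out. Against Kit+J, 5 of the 36 were called higher and 0 lower, beside 1.68% and 0.577% of all genes. The list mean was 0.25, 0.77 and 0.82 on Kit+D replicates 1, 2 and 3, so that replicate 1, the array high in myeloid genes, was lowest. Emcn, the endothelial sialomucin endomucin, read 5.25, 8.33 and 8.37 in Kit+D against 4.90, 5.80 and 5.57 in Kit+ and 10.07 to 10.43 in fresh Kit−. Replicate 1 lay within the fresh range and the other Kit+D arrays well above it. The difference from Kit+, 1.89, did not pass (limma adjusted p = 0.143, but 0.00411 without Kit+D replicate 1), and that from Kit+J, 2.68, did (0.0397). Cdh5, the cadherin of endothelial junctions, behaved alike, at 5.93, 8.33 and 8.58 in Kit+D against 5.65, 6.31 and 6.55 in Kit+ (adjusted p = 0.196, and 0.0101 without Kit+D replicate 1). Pecam1, which encodes CD31, read 7.60, 8.77 and 9.34 in Kit+D and 8.96 to 9.17 in Kit+, with overlap.

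Matrix and adhesion genes gave 3 called rises and 1 call downward among 29 matrix and 25 adhesion genes. Over all genes 1.04% were called higher and 0.381% lower. The matrix list averaged −0.21, 0.45 and 1.10 on Kit+D replicates 1, 2 and 3, against −0.05 to 0.05 in Kit+ and −0.02 to 0.52 in Kit+J. The stromal and mural list, at −0.12, 0.22 and 0.89, had the same order of arrays, and its part in the matrix calls was not tested. The adhesion list averaged 0.53, 0.29 and −0.05. Nid1, a basement membrane linker, rose by 1.34 (0.0382, up to 0.127 without Kit+ replicate 1), Tgfbi, a matrix protein induced by TGF-beta, by 1.29 (0.0174, up to 0.0754 without Kit+ replicate 1) and the integrin chain Itgav by 0.97 (0.0489, up to 0.173 without Kit+ replicate 2). Tns1, the focal adhesion protein tensin 1, fell by 1.15 (adjusted p = 0.032, up to 0.118 without Kit+ replicate 1), from 7.89, 7.45 and 7.50 to 6.64, 6.19 and 6.58; the mean of its probe sets and housekeeping scaling did not call it. Kit+J, at 7.34, 8.15 and 7.25, stayed at the fresh level of Tns1.

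**Figure D4:**
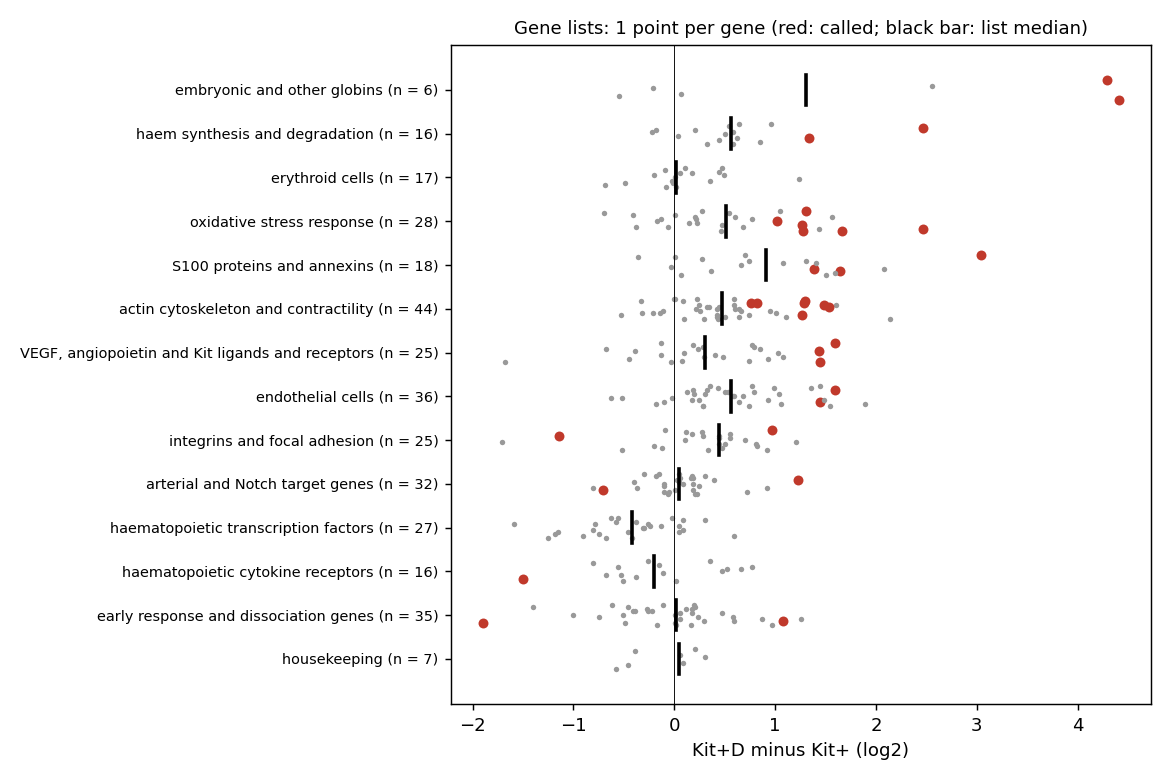
Difference between Kit+D and Kit+ (horizontal axis, log2) of each tested gene in 14 lists, 1 point per gene, with called genes in red and list medians as black bars. Called genes lie to the right in the globin, oxidative stress, S100 and annexin, actin and VEGF receptor lists, and the median of 27 haematopoietic transcription factors is −0.42.

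Genes of the Notch pathway, whose ligand the stroma carried, gave a call in each direction. Of 32 arterial and Notch target genes 1 was called higher and 1 lower (median 0.05), beside 1.04% and 0.381% of all genes. With only the compared groups, and under repeated quantile normalization, 0 were called in either direction. Housekeeping scaling called 2 higher and 0 lower, the robust variance trend 1 and 0, and array weights 3 and 1. Ccnd1, cyclin D1, a driver of the cell cycle, read 7.85, 7.78 and 8.06 in Kit+D, 6.65, 6.34 and 7.02 in Kit+ and 6.71, 6.74 and 6.33 in Kit+J. Kit+D lay above both, by 1.23 over Kit+ (limma adjusted p = 0.0427, up to 0.163 without Kit+ replicate 2) and by 1.30 over Kit+J (0.0252). Dtx1, Deltex 1, a target and modulator of Notch, was lower, at 5.51, 5.01 and 5.26 against 5.95, 5.91 and 6.04. It did not overlap with fresh cells and differed by −0.70 (adjusted p = 0.0417, up to 0.143 without Kit+D replicate 2). The repressor Hes1, a direct Notch target, read 6.93, 7.01 and 7.94 in Kit+D against 6.95, 7.14 and 7.10 in Kit+, high on replicate 3 alone (difference 0.23, adjusted p = 0.762), while in Kit− cells it went from 7.08, 6.30 and 6.89 to 8.29, 8.25 and 8.62 in Kit−D (1.63, adjusted p = 0.0539). Hey1, the related arterial repressor, read 5.96, 8.22 and 9.23 in Kit+D and 7.82 to 8.29 in Kit+, low on replicate 1 and high on replicate 3 (difference −0.30, adjusted p = 0.829). Of the receptors, Notch2 read 7.41, 7.11 and 6.23 against 5.91 to 6.05 and just missed the threshold (0.92, adjusted p = 0.0513), and Notch1 read 7.18 to 7.36 against 6.37 to 7.16 (0.39, adjusted p = 0.4). Dll4 read 4.30, 4.37 and 4.98 in Kit+D and 4.64 to 5.25 in Kit+, and Jag1 4.84, 4.15 and 5.32 and 4.49 to 5.20, both with overlap.

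Of 27 haematopoietic transcription factors, 0 were called by limma in Kit+D against Kit+. Their median was −0.42 in Kit+D and −0.39 in Kit+J, both against Kit+ and its 3 shared arrays, and 0.00 in Kit+D against Kit+J. The list mean was 0.15, −0.24 and −1.28 on Kit+D replicates 1, 2 and 3, lowest where the haematopoietic surface genes were lowest, and −0.48, −0.49 and −0.28 in Kit+J. Without Kit+D replicate 1, 2 were called lower, and without replicate 3, 1 higher. Runx1, which is needed for blood cells to bud from endothelium, read 8.75, 7.86 and 5.80 in Kit+D and 7.84 to 8.31 in Kit+, and Gata2, another early blood regulator, 8.17, 7.12 and 6.67 against 6.95 to 7.43; both were above the fresh range on replicate 1 and below it on replicate 3. Runx3, a relative of Runx1, was lower than in Kit+J by 1.94 (limma adjusted p = 0.0365; Kit+D minus Kit+ −1.59, 0.0848). The cytokine receptor Flt3, found on early lymphoid and myeloid progenitors, was the called member of 16 cytokine receptor genes, beside 0.381% of all genes called lower. It read 5.92, 4.90 and 4.71 in Kit+D, 6.86, 6.64 and 6.54 in Kit+ and 5.46, 5.65 and 5.48 in Kit+J. Both cultured groups lay below the fresh one and overlapped each other, and Kit+D differed from Kit+ by −1.50 ± 0.29 (SE; adjusted p = 0.0251, up to 0.0938 without Kit+D replicate 2). Tox, a chromatin factor of lymphoid cells, read 7.54, 5.93 and 6.07 in Kit+D, 8.25, 8.01 and 8.23 in Kit+ and 6.92 to 7.20 in Kit+J, a difference of −1.65 from Kit+ (0.0198, up to 0.0789 without Kit+D replicate 2).

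Early response and inflammatory genes gave few calls. Of 35 early response and dissociation genes 1 was called in each direction (median 0.02), beside 1.04% of all genes called higher and 0.381% lower. Against Kit+J 3 of them were called higher and 0 lower (median 0.44), beside 1.68% and 0.577% of all genes. Kit+J against Kit+ gave 2 of them called lower, beside 4 of all genes. The list mean relative to Kit+ was −0.15 to 0.13 in Kit+D, −0.16 to 0.12 in Kit+ and −0.56 to −0.31 in Kit+J. Nr4a2, an orphan nuclear receptor made within minutes of a stimulus, read 6.92, 7.21 and 6.25 in Kit+D, 9.20, 9.07 and 7.80 in Kit+ and 6.75, 7.80 and 6.52 in Kit+J, and so was low on both stromas; its difference from Kit+ was −1.90 (limma adjusted p = 0.0437, up to 0.162 without Kit+ replicate 2). Gadd45g, a growth arrest and stress gene, rose by 1.08 over Kit+ (0.0382, up to 0.13 without Kit+ replicate 2) and by 1.01 over Kit+J (0.0388), and also in Kit− cells by 1.33 (0.0404). Sgk1, a kinase induced by glucocorticoids and serum, read 6.08, 6.55 and 7.27 in Kit+D and 5.46 to 5.62 in Kit+, a rise of 1.12 (0.0382, up to 0.127 without Kit+ replicate 2), and rose in Kit− cells by 2.34 (0.00184). Tnfaip2, a gene induced by TNF, read 8.25, 6.46 and 6.18 in Kit+D and 4.80 to 5.02 in Kit+, highest on replicate 1. It was 1 of 25 NF-kB response genes called, with a rise of 2.03 (limma adjusted p = 0.0336, up to 0.104 without Kit+ replicate 2) and of 2.17 over Kit+J (0.0194). The NF-kB list averaged 1.98, −0.42 and −0.49 on the 3 Kit+D arrays and 1.07, −0.33 and −0.02 on Kit−D replicates 1, 2 and 3. Bst2, tetherin, was the called member of 23 interferon-stimulated genes. It read 6.83, 7.02 and 7.25 in Kit+D, 5.56 to 5.88 in Kit+ and 6.32 to 6.69 in Kit+J. Its rise of 1.33 (limma adjusted p = 0.00346) was not highest on replicate 1, where the list averaged 1.84 against −0.04 and −0.20 on the others. The interferon list averaged 0.79, −0.16 and 0.01 on Kit−D replicates 1, 2 and 3.

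Genes of growth and metabolism added single calls, beside 1.04% of all genes called higher and 0.381% lower. Cdt1, which licenses replication origins, read 7.49, 7.55 and 7.93 in Kit+D, 6.25, 6.15 and 6.50 in Kit+ and 6.66, 6.67 and 6.32 in Kit+J, above both groups without overlap (1.36 over Kit+, limma adjusted p = 0.00629; 1.11 over Kit+J, 0.0148); it was 1 of 29 DNA replication genes called, and 0 of 29 mitosis genes were. The proton pump subunits Atp6v0b, named after its values were seen, and Atp6v1h rose by 1.51 (0.00369) and 0.84 (0.0336, up to 0.13 without Kit+ replicate 2). The glycolytic enzymes Aldoa and Pgam1 rose by 0.81 (0.0489, up to 0.167 without Kit+ replicate 1) and 0.57 (0.0373, up to 0.115 without Kit+ replicate 3), 2 of 28 hypoxia and glycolysis genes with a median of 0.00. Peg10, an imprinted gene of retroviral origin that was also named after its values were seen, rose by 1.42 (0.00439), with Kit+J between the groups at 8.71, 9.03 and 9.41 beside 9.74, 9.59 and 9.15 in Kit+D and 7.87 to 8.34 in Kit+. Replication-dependent histone genes were split between the references. Of 22 tested, H4c6 was called higher than in Kit+, by 1.34 (0.0254, up to 0.095 without Kit+D replicate 2), and H2bc1 lower, by −1.18 (0.0341, up to 0.115 without Kit+ replicate 3). Against Kit+J, 10 were called higher and 0 lower, with a median of 1.19, beside 1.68% of all genes called higher. Relative to Kit+, the histone list averaged 0.48, 0.43 and 0.01 on Kit+D replicates 1, 2 and 3. It averaged −0.312, −0.925 and −1.142 on the Kit+J arrays. H2ac4 read 7.83, 8.22 and 8.64 in Kit+D, 6.01, 6.81 and 7.47 in Kit+ and 7.04, 5.67 and 4.43 in Kit+J (2.52 over Kit+J, 0.0327).

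The remaining genes among the 12 called rises and 12 called falls of largest size were of mixed function. Kif1c, a kinesin motor, rose by 1.80 (limma adjusted p = 0.0113, up to 0.0594 without Kit+D replicate 2) and was as high in Kit+J, at 6.87, 7.26 and 7.33 beside 7.02, 7.86 and 7.24 in Kit+D. Tmbim1, a membrane protein of the Bax inhibitor family, rose by 1.74 (0.046, up to 0.136 without Kit+ replicate 3), the nuclear body gene Sp140 by 1.70 (0.0254, up to 0.0935 without Kit+ replicate 3) and Rpp25l by 1.60 (0.0431, up to 0.151 without Kit+D replicate 2). Rpp25l read 6.17 to 6.26 in Kit+J, at the fresh level, and Kit+D exceeded it by 1.56 (0.0385). Among the falls, Spa17, a sperm surface protein that binds a kinase anchor, read 6.37, 7.29 and 6.82 in Kit+D against 8.43, 8.53 and 8.69 in Kit+, lower on every array by a mean of −1.72 (0.0167, up to 0.0666 without Kit+ replicate 3), and Kit+J remained at 8.01 to 8.54. Rbm25, a splicing factor, was lower by −1.11 (0.0174, up to 0.0703 without Kit+ replicate 2) and lower than Kit+J by −1.18 (0.0097). The ubiquitin ligase gene Marchf5 was lower by −1.24 (0.0417, up to 0.146 without Kit+D replicate 2), the Polycomb partner Rybp by −1.12 (0.0467, up to 0.16 without Kit+D replicate 2) and Adam34l by −1.36 (0.0183, up to 0.0772 without Kit+ replicate 1). The melanocortin receptor Mc5r, by −1.26 (0.0431, up to 0.158 without Kit+ replicate 2), and Rdh16f2, by −1.03 (0.0183, up to 0.0802 without Kit+ replicate 2), complete the falls; Rybp, H2bc1, Tns1 and Rdh16f2 were not called under housekeeping scaling.

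**Figure D5:**
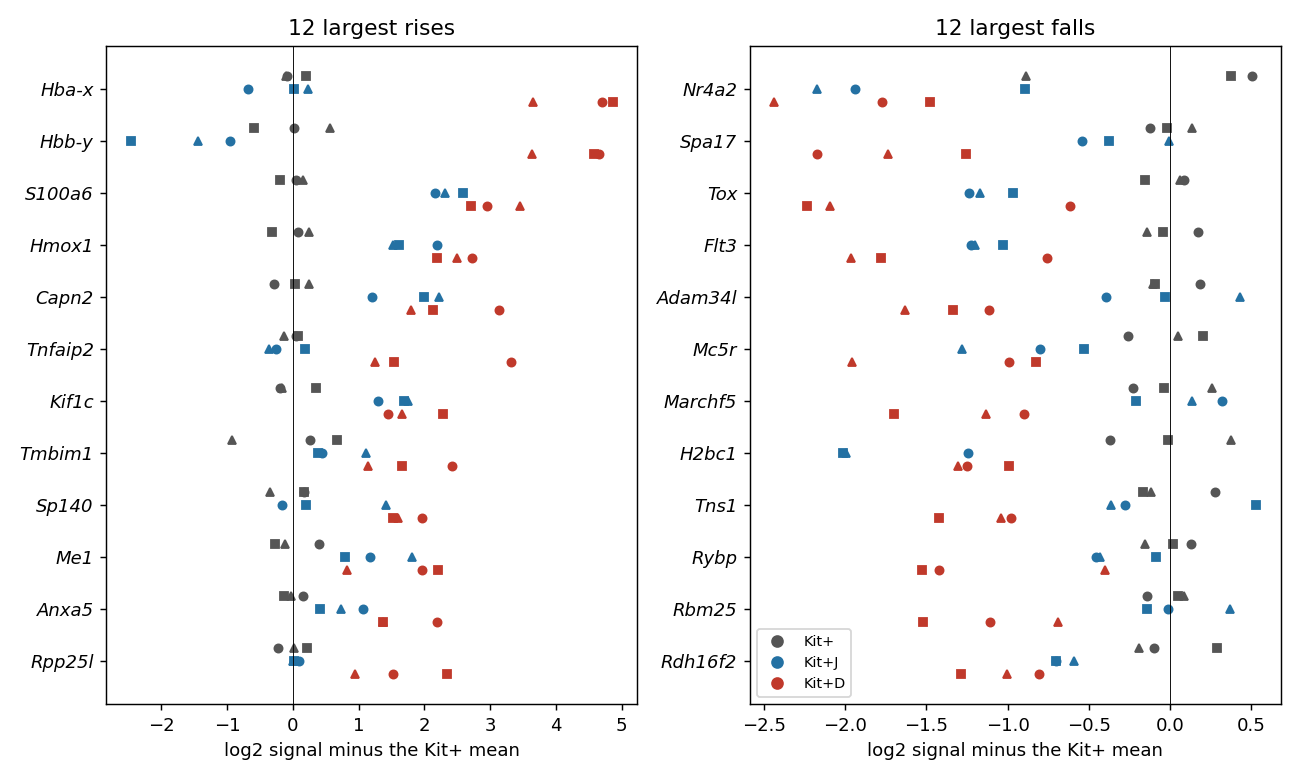
Log2 signal minus the Kit+ mean (horizontal axes) on each Kit+ (grey), Kit+J (blue) and Kit+D (red) array for the 12 called rises and 12 called falls of largest size, leaving out provisional symbols and small RNAs; circles, squares and triangles are replicates 1, 2 and 3. Kit+J lies near Kit+D for S100a6, Kif1c, Flt3 and Nr4a2 and near Kit+ for Hba-x, Rpp25l, Spa17 and Rbm25.

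Kit+D differed from Kit+J, the same sort gate on the other ligand, in 449 genes (2.25%; 334 higher, 1.68%, and 115 lower, 0.577%), a comparison without fresh arrays. That count was 113 without Kit+D replicate 2 and 1243 without Kit+D replicate 3, and 259 and 234 without Kit+J replicates 2 and 3. Kit+J differed from Kit+ in 4 genes (0.0201%, all lower; 1330 genes, 6.67%, at an unadjusted p under 0.05), so that few genes were called against fresh cells on OP9-Jag1; both comparisons with fresh cells share the 3 Kit+ arrays. Tcim, the gene of a small regulator of Wnt signalling, was among the 5 largest differences from Kit+J, at 5.77, 6.92 and 6.92 in Kit+D against 3.97, 4.68 and 3.35 in Kit+J (2.54, limma adjusted p = 0.0194), but the fresh arrays spread from 3.97 to 6.57. In the test of whether the OP9-Dll4 effect differed between Kit+ and Kit− cells, 0 genes were called by limma (1790 genes, 8.98%, at an unadjusted p under 0.05), so that this fit showed none of the changes above to be particular to the Kit+ gate; with array weights 54 were called. With the gates of each sort as a fixed block 3 were called, Hba-x and the myeloid genes Cybb (3.75, adjusted p = 0.000846) and Clec7a (2.25, 0.0235), and with a random block 0 (1616 genes, 8.11%, at an unadjusted p under 0.05).

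Small RNA genes were measured through probes to their precursors or host transcripts, not as mature RNA. Of 300 microRNA genes 4 were called, all higher (median 0.00), and of 55 small nucleolar RNA genes 5, all higher (median 0.71). Over all genes 1.04% were called higher, and the microRNA count was near that share. Snora3 read 10.94, 11.07 and 10.73 in Kit+D, 8.53, 8.21 and 8.19 in Kit+ and 9.38, 7.80 and 7.36 in Kit+J, clear of both other groups (2.60 over Kit+, limma adjusted p = 0.00894; 2.74 over Kit+J, 0.00487). Mir17, of the cluster that promotes proliferation, read 7.67, 8.15 and 8.98 in Kit+D, 5.70, 6.12 and 3.38 in Kit+ and 7.78, 7.11 and 7.41 in Kit+J, so that it was high on both stromas and the fresh arrays were far apart (3.20 over Kit+, 0.0129, and 0.0518 without Kit+D replicate 2). Mir465, of an X-linked family with near-identical copies that the array cannot fully separate, read 5.01, 5.83 and 5.36 in Kit+D, 3.41 to 3.66 in Kit+ and 3.17 to 4.00 in Kit+J (1.83, 0.00629). Mir692-1 rose by 0.99 (0.00894, and 0.0531 without Kit+ replicate 1) and Mir350 by 1.19 (0.0431, up to 0.161 without Kit+ replicate 2). The mature RefSeq sequences of the 4 called microRNA genes are given with the seed, bases 2 to 8, in capitals, to show which would share targets.
miR-17-5p: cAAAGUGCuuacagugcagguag
miR-350-5p: aAAGUGCAugcgcuuuggg
miR-17-3p: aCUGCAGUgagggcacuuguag
miR-350-3p: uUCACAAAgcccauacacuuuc
miR-465a-5p: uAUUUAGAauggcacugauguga
miR-465a-3p: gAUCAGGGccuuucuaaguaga
miR-692: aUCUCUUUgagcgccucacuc
No 2 of these 7 seeds are identical, and those of miR-17-5p and miR-350-5p hold the run AAGUGC in a shifted frame.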

How the data were processed

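The authors deposited RMA signals on the log2 scale (the version of RMA is not given in the sources used here) for 17 arrays in 6 groups; 6 fresh arrays come from an earlier series, and whether all were normalized together is not stated. Depth does not apply to arrays, and the 2 or 3 arrays per group limit the precision. Gene symbols came from the platform annotation. Of 34760 probe sets, 21640 had 1 symbol, 1321 several and 11799 none; 21553 matched RefSeq (GRCm38.p6) by Entrez number. Where a gene had several probe sets (954 genes), the brightest on average was kept, leaving 19937 genes. Adult globin genes share probe sets and were not tested. Group means were fitted over all 17 arrays with limma 3.58.1 (R 4.3.3 and data.table version 1.17.8), two-sided, with Benjamini-Hochberg adjustment over all genes and a threshold of 0.05; the methods name no test for differential expression. Motifs and figures were made in Python 3.11.15 with matplotlib 3.10.9. The fit was tested on simulated data.

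Members and lists (38 lists; 786 of 869 genes tested) were chosen with earlier results of these data known. The rule for named genes took the 12 largest called rises and falls whose arrays did not overlap, without provisional symbols and small RNAs, up to 4 genes per list by adjusted p, the 5 largest differences from Kit+J and Notch pathway genes. Genes outside it, the small RNAs and Hbb-bh1, Rhag, Alas2, Klf1, Gata1, Gclm, Flna, Rhoc, Tek, Plxnd1, Emcn, Ermap, Epor, Cybb, Clec7a, Cdh5, Pecam1, Runx1, Gata2, Csf1r, Pou5f1 and Ptprc among them where the rule did not take them, were picked with their values in view. The fit was repeated with only the compared groups, with a robust variance trend, and with no dim genes, housekeeping scaling, repeated quantile normalization, array weights, mean of probe sets, all probe sets, a difference of at least 1, a replicate block and each array left out; Kit+D replicate 2 alone and the 9 Kit+ arrays alone were added after the data were seen. Where Kit+D kept 1 array, it was taken to have the spread of the other groups. Replicates are 3 sorting experiments per the methods. The 2 gates sorted from OP9-Dll4 culture of the same number deviated together (correlations 0.462, 0.179 and 0.289), and the fresh gates did not (0.006 to 0.065), so the difference between the gates was also fitted with culture and number as a block, added after the data were seen.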

Additional observations from a re-analysis of the deposited data

How the results depend on the processing

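Of 283 genes called in Kit+D against Kit+ and 449 against Kit+J, the counts were 6 and 2 with only the groups compared in the fit, where few arrays estimate the spread, 793 and 1024 over all probe sets, and 127 and 196 with a difference of at least 1. Array weights gave 1075 calls against Kit+ (with 280 of the 283) and 371 against Kit+J, with Kit+D weights of 0.396, 1.466 and 0.428, and 54 for the difference between the Kit gates, where all probe sets gave 5. The 9 Kit+ arrays alone gave 19 and 36 calls. Leaving out 1 array gave 35 to 543 calls against Kit+, 113 to 1243 against Kit+J and 0 to 5 for the difference between the gates. The variance trend, the filter on dim genes, both scalings and the mean of probe sets gave 230 to 312 calls against Kit+; the cause of the other changes was not tested. Of the genes whose difference is printed, Hes1 turned to −0.10 without Kit+D replicate 3 and −0.056 with Kit+D replicate 2 alone (0.41 without Kit+D replicate 1), and Hey1 to 0.62 without Kit+D replicate 1 (−1.01 without Kit+D replicate 3) and 0.12 with Kit+D replicate 2 alone; neither was called.

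Replicate numbers were shared by the groups, but same-numbered Kit+D and Kit+ arrays did not deviate together (correlations −0.086, −0.012 and −0.029), so the numbers were not taken as pairs there. A fixed replicate block gave 172 calls against Kit+ and 355 against Kit+J, a random block 198 and 378, and both 0 for the difference between the gates, where a fixed block within each culture gave 3 and a random one 0. Of 61 called genes printed, the fixed block ended 20 calls (adjusted p from 0.0501 to 0.0773): Alad, Aldoa, Anxa2, Atp6v1h, Ccnd1, Dtx1, Gadd45g, Gclm, H2bc1, Itgav, Marchf5, Me1, Mir350, Pgam1, Rhoc, Rpp25l, Rybp, Sgk1, Tmbim1 and Tns1. The random block ended 13 (up to 0.0691), of which Kdr, Mc5r and Nr4a2 were not among these 20. The fresh arrays were hybridised for another series. With 3 arrays per group an uncalled gene cannot be read as unchanged, and large differences such as that of Hbb-bh1 did not pass.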
